A study of Mus musculus with 12 samples.

Results

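Chromatin accessibility was followed at 10 genes that encode subunits of the Polycomb repressive complexes: Ezh1, Ezh2, Eed, Suz12, Jarid2 and Mtf2 of PRC2, and Cbx2, Cbx7, Ring1 and Rnf2 of PRC1. The members were all peaks that overlapped the body of one of these genes, taken from the GENCODE M21 annotation of GRCm38 and extended by 10 kb on either side. This rule used position only, and it found 76 of the 91354 peaks called from data of the BGI DNBSEQ-G400 instrument and 78 of the 87027 peaks called from data of the Illumina HiSeqX10 instrument. Each BGI peak was 502 bases wide. All 76 and all 78 passed the filter on low counts and were tested.

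The study compared mouse embryonic fibroblasts (MEFs), cultured fibroblasts sorted as THY1+, with mouse embryonic stem cells (mESCs), pluripotent cells sorted as THY1-/SSEA1+/EPCAM+. Both came from a C57/Bl6 background and carried no treatment. Omni-ATAC-seq, in which a transposase cuts open chromatin and tags it for sequencing, gave 3 biological replicate libraries per cell type (MEF 1, 2 and 4; mESC 1, 3 and 5), and all 6 libraries were read on both instruments, which made 12 samples. The values below are CPM, the count in a peak scaled to a common total of reads in all peaks of that library. A peak was called higher or lower in mESCs where edgeR's quasi-likelihood test gave an adjusted p under 0.05 over all peaks of the set, and log2 fold changes are mESC over MEF with their standard error (SE). They carry edgeR's TMM scaling between libraries, which the CPM do not.

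PRC2 places methyl groups on a lysine of histone H3, and PRC1 attaches ubiquitin to histone H2A, and together they keep developmental genes silent in cells that do not use them. PRC2 is built on EZH1 or EZH2, EED and SUZ12, and accessory proteins such as JARID2 and MTF2 bring it to chromatin. In PRC1 the RING1 or RNF2 protein is the ubiquitin ligase and CBX proteins read the methyl mark. In pluripotent cells CBX7 is known as the main CBX protein of PRC1, and CBX2 is better known from differentiating cells.

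The following stretches, from the GRCm38 genome of RefSeq and written 5′ to 3′ on the plus strand with each CpG in capitals, show the kinds of site that the results turn on. The first pair is promoter DNA just upstream of Rnf2 (chr1:151500956-151501168, 213 bases with 25 CpG) and of Suz12 (chr11:79992806-79993105, 300 bases with 42 CpG), where both cell types were open.
Rnf2 promoter: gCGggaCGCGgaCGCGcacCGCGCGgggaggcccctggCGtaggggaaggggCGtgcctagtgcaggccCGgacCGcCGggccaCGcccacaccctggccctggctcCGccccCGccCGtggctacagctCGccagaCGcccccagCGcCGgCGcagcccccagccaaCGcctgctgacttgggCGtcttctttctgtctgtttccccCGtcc
Suz12 promoter: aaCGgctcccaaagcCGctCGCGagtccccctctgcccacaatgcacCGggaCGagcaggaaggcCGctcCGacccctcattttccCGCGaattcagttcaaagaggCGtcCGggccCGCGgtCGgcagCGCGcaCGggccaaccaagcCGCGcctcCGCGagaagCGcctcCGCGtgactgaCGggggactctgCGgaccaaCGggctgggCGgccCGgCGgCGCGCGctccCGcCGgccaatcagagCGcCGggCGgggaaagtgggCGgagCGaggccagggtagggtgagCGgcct
The next pair are sites that were close to background in MEFs and open in mESCs, an intron site of Mtf2 (chr5:108077013-108077312, 2 CpG) and an intron site of Eed (chr7:89975671-89975970, 1 CpG).
Mtf2 intron: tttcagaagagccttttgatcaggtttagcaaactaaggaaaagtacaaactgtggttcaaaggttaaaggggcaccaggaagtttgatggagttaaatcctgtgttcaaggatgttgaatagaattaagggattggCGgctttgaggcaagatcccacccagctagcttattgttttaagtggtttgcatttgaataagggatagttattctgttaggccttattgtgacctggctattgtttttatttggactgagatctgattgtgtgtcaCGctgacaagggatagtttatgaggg
Eed intron: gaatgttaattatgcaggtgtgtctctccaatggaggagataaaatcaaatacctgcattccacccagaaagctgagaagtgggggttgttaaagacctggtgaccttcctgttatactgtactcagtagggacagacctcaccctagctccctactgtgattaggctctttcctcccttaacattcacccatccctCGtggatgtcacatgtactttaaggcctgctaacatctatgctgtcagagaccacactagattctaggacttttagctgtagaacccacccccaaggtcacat
The last pair holds the strongest non-promoter peak of all members, in an intron of Jarid2 (chr13:44869470-44869769, 16 CpG), and the site in Cbx2 that closed most in mESCs, in a peak that overlaps a coding exon (chr11:119026213-119026512, 9 CpG). A peak was named an exon peak where any part of it overlapped an exon, so this stretch can also hold intron bases.
Jarid2 intron: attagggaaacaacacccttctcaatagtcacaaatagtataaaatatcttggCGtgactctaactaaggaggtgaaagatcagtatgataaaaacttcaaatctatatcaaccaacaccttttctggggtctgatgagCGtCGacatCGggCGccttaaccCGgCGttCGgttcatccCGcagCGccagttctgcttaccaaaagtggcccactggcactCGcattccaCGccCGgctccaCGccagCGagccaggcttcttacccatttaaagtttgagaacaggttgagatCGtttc
Cbx2 exon: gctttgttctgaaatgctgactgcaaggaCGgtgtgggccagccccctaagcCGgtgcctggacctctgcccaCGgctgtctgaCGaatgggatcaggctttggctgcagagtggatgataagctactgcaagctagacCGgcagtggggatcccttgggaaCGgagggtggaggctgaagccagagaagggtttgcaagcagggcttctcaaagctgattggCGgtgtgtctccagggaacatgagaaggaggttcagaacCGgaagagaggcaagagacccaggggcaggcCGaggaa

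Of the 76 BGI peaks, 46 were higher in mESCs, 12 were lower and 18 were not called. Over all BGI peaks, 40.9% were called higher and 43.2% lower. The median log2 fold change of the members was 1.01 against -0.08 for all peaks, and 38 members rose and 6 fell by more than 2-fold. Changes of that size were common over all peaks. The median absolute log2 fold change was 1.79 for the members and 1.74 for all peaks. The libraries of the 2 cell types did not overlap at 61 of the 76, where 85.1% of all peaks had no overlap. Cbx7 held 17 and Jarid2 18 of the 76 peaks, and without them 17 of 41 were higher and 10 lower with a median of 0.18. In a bulk library, more cells with an open site and a site open more often in each cell cannot be told apart.

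Position split the members, as it split all peaks. Of 21 peaks within 1 kb of a coding start site of their own gene, 8 were higher, 3 lower and 10 not called, with a median log2 fold change of 0.19; among all such promoter peaks 25.9% were higher and 42.6% lower. Without the 5 of Cbx7, 3 of 16 were higher and 3 lower. Of the 50 peaks more than 1 kb from a coding start of any gene, which are called distal here, 38 were higher and 6 lower with a median of 2.10, where 45.9% of all peaks more than 1 kb from a coding start were higher and 43.4% lower. Without Cbx7 and Jarid2 the counts were 16 higher and 4 lower of 24, with a median of 2.05. In absolute size the median log2 fold change was 0.31 at the 21 promoter peaks and 2.49 at the 50 distal peaks. Over all such BGI peaks it was 0.49 and 2.48. In 5 of the 50 a non-coding transcript of the same gene started within 1 kb, and the other 45 held 34 higher and 6 lower peaks. The peak set joined the reproducible peaks of both cell types, and of these 50 peaks 32 matched the mESC list alone, 6 the MEF list alone and 12 both. Of the 21 own promoter peaks, 8 matched the mESC list alone and 13 both. A peak of the mESC list alone entered the set through the cell type where it was high, which favours a rise. A peak of the MEF list alone entered it through MEFs, which favours a fall. Introns held 28 of the 50, of which 24 were higher and 1 lower. The remaining 5 peaks lay on promoters of neighbouring genes, and 3 of them were lower.

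**Figure D1:**
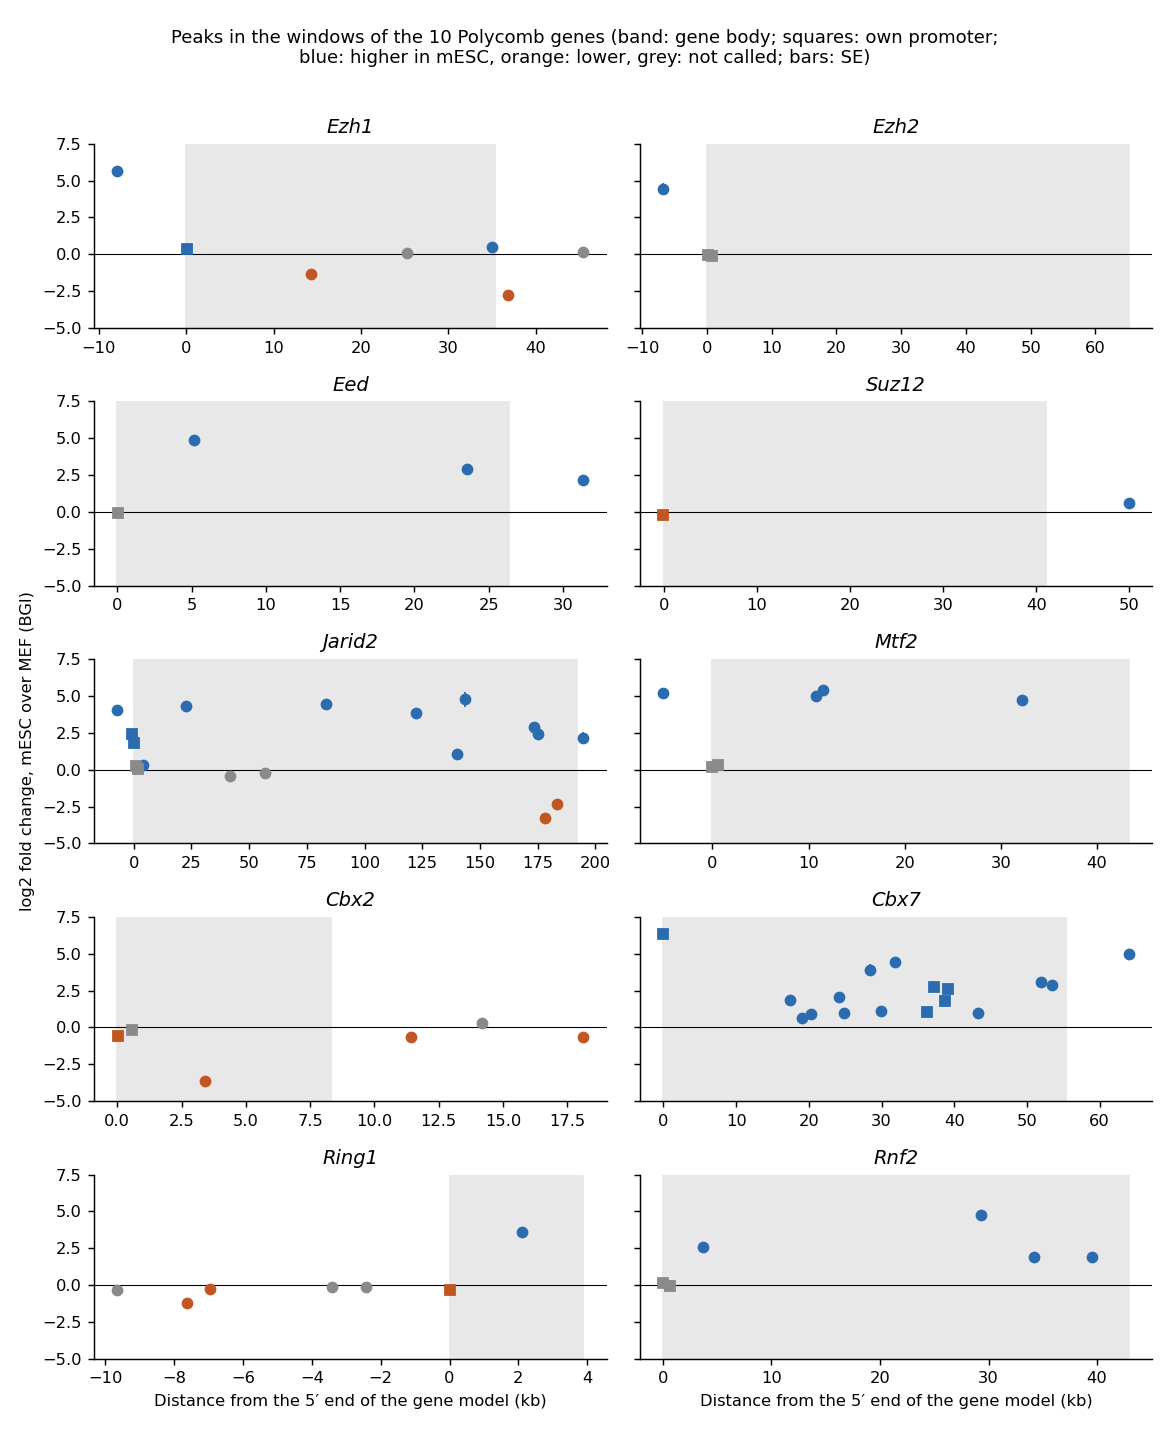
Log2 fold change (mESC over MEF, BGI, bars are SE) of every peak against its distance in kb from the 5′ end of the gene model, 1 panel per gene, with the gene body as a band. Squares are own promoter peaks, blue marks peaks higher in mESCs, orange lower and grey not called. All 17 Cbx7 peaks lie above 0, and the promoter squares of Ezh2, Eed, Suz12 and Rnf2 lie close to 0 beside distal peaks that rise.

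The strongest promoter peak of each gene differed little between the cell types for most members. The median absolute log2 fold change of these peaks was 0.23 on BGI, against 0.39 for the strongest promoter peak of all coding genes. Ezh2, the main PRC2 methyltransferase of dividing cells, had 48.7, 55.2 and 52.4 CPM in MEF 1, 2 and 4 and 51.6, 56.9 and 46.9 CPM in mESC 1, 3 and 5 at its promoter (chr6:47594870-47595371, over the first exon and its UTR). These groups overlapped, and the log2 fold change was -0.07 (SE 0.096, adjusted p = 0.482). On Illumina it was not called either (-0.11, adjusted p = 0.207), but it was lower without mESC 3 (-0.16, adjusted p = 0.0488). The promoter of Eed, which encodes the subunit that binds methylated histone, had 21.9, 24.0 and 27.8 CPM in MEFs and 23.4, 24.9 and 26.0 in mESCs (chr7:89980702-89981203). It too overlapped between cell types, at -0.05 (SE 0.109, adjusted p = 0.654), while the unscaled CPM had means of 24.6 in MEFs and 24.8 in mESCs, in the other order. On the Illumina set no peak matched it by at least 50% of its width, and of a pair of nearby Illumina peaks the stronger, which starts at 89980415, was lower at -0.25 (adjusted p = 0.0289) although its groups overlapped, and was not called after the GC correction (-0.05, adjusted p = 0.589). The weaker one was not called.

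Suz12, the scaffold of PRC2, had the strongest promoter of the 10 (chr11:79992775-79993276). It measured 59.7, 63.1 and 57.6 CPM in MEFs and 51.5, 55.5 and 53.9 in mESCs. The groups did not overlap, and the peak was lower in mESCs at -0.23 (SE 0.085, adjusted p = 0.0174). On the Illumina set it was not called (-0.17, adjusted p = 0.0714), but it was with DESeq2 (-0.18, adjusted p = 0.0252), RLE size factors (-0.18, adjusted p = 0.0459) and the BGI columns (-0.27, adjusted p = 0.00568), and without MEF 2 (-0.23, adjusted p = 0.0422) or mESC 3 (-0.30, adjusted p = 4.23e-04). On BGI the call was lost without MEF 1 (-0.19, adjusted p = 0.122), MEF 2 (-0.19, adjusted p = 0.0901) or mESC 1 (-0.20, adjusted p = 0.0721), with library sizes set to the depth after down-sampling (-0.09) and with a correction for GC content (-0.07). Ezh1, the other methyltransferase, had 13.2, 14.9 and 12.7 CPM in MEFs and 20.7, 16.6 and 17.5 in mESCs (chr11:101226143-101226644). All mESC libraries were above all MEF libraries, at 0.36 (SE 0.134, adjusted p = 0.0192), and the call was lost without mESC 1 (0.26, adjusted p = 0.117).

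The strongest promoter peaks of the accessory subunits and of Rnf2 sat near the threshold. Jarid2 had 37.4, 33.2 and 39.9 CPM in MEFs and 48.4, 47.8 and 38.7 in mESCs (chr13:44730366-44730867), which overlapped at mESC 5 and gave 0.22 (SE 0.107, adjusted p = 0.0624). It passed the threshold on Illumina (0.22, adjusted p = 0.0286), where leaving out MEF 2, MEF 4, mESC 1 or mESC 3 ended the call. The BGI columns of the Illumina peak ended it too (0.16, adjusted p = 0.161). On BGI it passed with the GC correction (0.41, adjusted p = 4.50e-04), RLE size factors (0.26), fixed library sizes (0.36), DESeq2 (0.26), a mean count of at least 50 (0.25) and the Illumina columns (0.23). It also passed without mESC 5 (0.33, adjusted p = 0.00875), MEF 1 (0.29, adjusted p = 0.0476) or MEF 4 (0.27, adjusted p = 0.0401). Other Jarid2 promoter peaks, which start at 44728474 and 44729448, were called higher at 2.44 and 1.78, and that at 44731045 was not called (0.05). The 4 Jarid2 promoter peaks summed to 59.6 ± 3.99 CPM in MEFs and 87.3 ± 5.74 in mESCs (SD, n = 3), without overlap. Mtf2, which encodes a Polycomb-like protein that binds CpG-rich DNA, had 22.4, 18.9 and 20.2 CPM against 22.7, 28.4 and 22.2 (chr5:108065398-108065899; 0.19, SE 0.125, adjusted p = 0.171), and passed with fixed library sizes alone (0.33, adjusted p = 0.0364). Rnf2, the main ubiquitin ligase of PRC1 in mESCs, had 33.1, 33.6 and 37.5 CPM against 40.2, 43.2 and 38.4 (chr1:151500667-151501168). Its groups did not overlap, yet 0.16 (SE 0.095) missed the threshold (adjusted p = 0.124). It passed with the GC correction (0.36, adjusted p = 4.00e-04), fixed library sizes (0.30, adjusted p = 0.0153), RLE size factors (0.20, adjusted p = 0.0435), DESeq2 (0.20, adjusted p = 0.0212) and the Illumina columns of the BGI peak (0.20, adjusted p = 0.0370), but the matched peak of the Illumina set was not called (0.18, adjusted p = 0.0602). That peak too was called with the GC correction (0.40, adjusted p = 2.38e-05), fixed library sizes (0.31, adjusted p = 0.00702), RLE size factors (0.17, adjusted p = 0.0477) and DESeq2 (0.17, adjusted p = 0.0278), and without mESC 5 (0.23, adjusted p = 0.0370).

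Promoters of the PRC1 genes Cbx2, Ring1 and Cbx7 were called. Cbx2 had 30.1, 25.7 and 31.8 CPM in MEFs and 21.1, 21.6 and 19.0 in mESCs (chr11:119022728-119023229), so every mESC library was below every MEF library. The log2 fold change was -0.57 (SE 0.113, adjusted p = 1.49e-04), and on Illumina it was -0.67. Ring1, the paralogue of Rnf2, had 19.5, 17.6 and 23.8 CPM in MEFs and 15.3, 17.3 and 17.4 in mESCs (chr17:34024404-34024905). It was lower at -0.35 (SE 0.129, adjusted p = 0.0185; Illumina -0.39), but not without MEF 1 (-0.33, adjusted p = 0.0549), MEF 4 (-0.24, adjusted p = 0.0979) or mESC 1 (-0.29, adjusted p = 0.0766), with fixed library sizes (-0.21) or after the GC correction (-0.12).

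**Figure D2:**
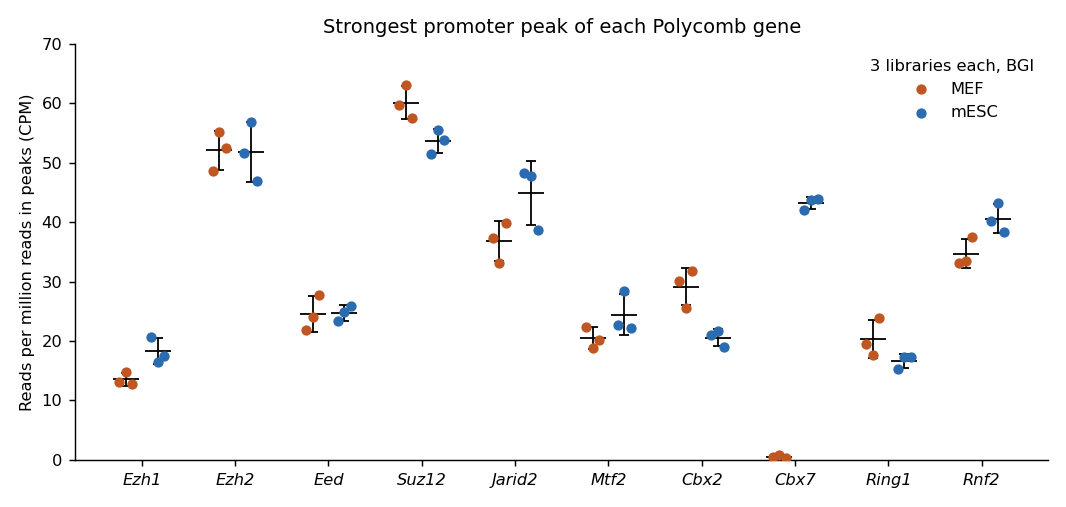
CPM of the strongest promoter peak of each Polycomb gene in each BGI library, with 3 MEF and 3 mESC points per gene. The Cbx7 points separate most, from under 1 CPM in MEFs to over 40 in mESCs, and the points of Ezh2 and Eed overlap.

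Cbx7 stood apart in size. Its outermost start site, over the first exon of the longest gene models, had 0.462, 0.746 and 0.299 CPM in MEFs and 42.0, 43.7 and 43.9 in mESCs. The site was thus near background in every MEF library and stronger than the Ring1 promoter in every mESC library, with a log2 fold change of 6.34 (SE 0.192, adjusted p = 6.52e-14) and 6.28 on Illumina. GENCODE lists these transcripts outside its basic set. A CpG-rich start site inside the gene (chr15:79932204-79932705) had 7.20, 4.77 and 6.37 CPM in MEFs and 22.6, 21.1 and 23.7 in mESCs. It rose by 1.81 (SE 0.156, adjusted p = 6.65e-09), and the deposited BGI peak lists held a summit there in 1 of 3 MEF and 3 of 3 mESC libraries.

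All 17 peaks of the Cbx7 window were higher in mESCs (all BGI peaks 40.9%), with log2 fold changes between 0.67 and 6.34, and 13 of them matched the mESC list alone. The largest rise outside its promoters lay in the 10 kb extension, inside the body of Apobec3 (chr15:79906809-79907310), from 0.969, 0.795 and 0.597 CPM to 26.1, 25.5 and 29.1 (5.01, SE 0.193, adjusted p = 4.84e-13). Its groups were far apart. On Illumina, 18 of 18 Cbx7 peaks were higher (all Illumina peaks 42.1%), and 15 of them matched the mESC list alone. The Illumina peak that starts at 79951835 (0.44) was not called after the GC correction (0.21, adjusted p = 0.321).

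The Cbx2 window went the other way, with 0 of 6 peaks higher and 4 lower by edgeR (Illumina 0 and 4 of 6), where 43.2% of all BGI and 42.4% of all Illumina peaks were lower. The peak over a coding exon (chr11:119026112-119026613) had 16.6, 14.4 and 10.1 CPM in MEFs and 1.01, 0.946 and 1.49 in mESCs. Every MEF library was several-fold above every mESC library, at -3.64 (SE 0.260, adjusted p = 6.14e-10; Illumina -3.48). This peak matched the MEF list alone. Another of the 4 was the promoter of the neighbour Cbx8, a further CBX gene of PRC1, at -0.68 (SE 0.103). Summed over the peaks other than its own promoter, the Cbx2 window fell from 78.9 ± 5.28 CPM in MEFs to 49.0 ± 1.05 in mESCs (SD, n = 3). The Cbx8 promoter made up 46.9 and 30.7 CPM of these sums. The Cbx7 window rose from 58.3 ± 2.80 to 176.1 ± 9.03.

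Several PRC2 genes whose promoters were not called carried distal sites, as defined above, that were nearly closed in MEFs. In Mtf2 the intron peak at chr5:108076912-108077413, which lies 752 bases from the start of a non-coding Mtf2 transcript, rose from 0.416, 0.497 and 0.149 CPM to 14.9, 17.7 and 16.0 (5.42, SE 0.280, adjusted p = 1.15e-11). Every mESC library exceeded every MEF library by far, and the other 3 peaks outside the Mtf2 promoter rose by 4.72 to 5.21. The sum of these 4 peaks was 1.77 ± 0.330 CPM in MEFs and 64.1 ± 2.23 in mESCs (SD, n = 3), and these peaks matched the mESC list alone. The Mtf2 promoter peaks summed to 27.4 ± 1.48 and 33.5 ± 4.78.

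Eed showed the same contrast between its promoter and its gene body. The intron peak at chr7:89975570-89976071 rose from 0.831, 0.497 and 0.647 CPM to 20.2, 21.8 and 20.8 (4.90, SE 0.211, adjusted p = 1.58e-12), close to the level of the Eed promoter. The other 2 peaks outside the promoter rose by 2.19 and 2.95. Ezh2 had 1 peak outside its promoter, 6513 bases upstream of the nearest coding start (chr6:47601854-47602355), with 0.231, 0.398 and 0.249 CPM in MEFs and 7.25, 7.86 and 5.28 in mESCs (4.45, SE 0.362, adjusted p = 3.12e-09). It was well apart between cell types but reached only a fraction of the level of the Ezh2 promoter. Suz12 likewise had 1 such peak (chr11:80042820-80043321), which rose by 0.64 (SE 0.197, adjusted p = 0.00647) from 4.16, 4.32 and 4.73 CPM to 7.31, 6.56 and 7.64. The distal peaks of Eed, Ezh2 and Suz12 also matched the mESC list alone.

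Jarid2, the longest of the genes at 192170 bases, held sites of both kinds. Its strongest intron peak (chr13:44869369-44869870) had 41.4, 37.4 and 39.5 CPM in MEFs and 87.5, 90.6 and 85.4 in mESCs (1.09, SE 0.084, adjusted p = 1.70e-09). It was above the strongest Jarid2 promoter peak in every mESC library, and already in MEF 1 and MEF 2. This peak is CpG-rich for an intron, with a CpG ratio of 0.935, and 41.6% of its bases were marked as repeats. The part of read mapping in its value was not tested. The largest rise on BGI was at chr13:44872749-44873250, from 0, 0.199 and 0.349 CPM to 6.24, 3.13 and 6.46 (4.77, SE 0.538, adjusted p = 2.08e-07). On Illumina its matched peak rose by 3.68, and the largest Jarid2 rise there, at another peak, was 5.31.

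Toward the 3′ end of Jarid2, 2 peaks over coding exons were lower in mESCs. The larger fall (chr13:44907541-44908042) went from 11.7, 12.8 and 20.3 CPM to 2.14, 1.48 and 1.24 (-3.26, SE 0.256, adjusted p = 1.99e-09), and the other (chr13:44912748-44913249) was at -2.32. An exon peak between them and the strong intron site, at chr13:44902835-44903336, rose by 2.92. In all, 12 of 18 Jarid2 peaks were higher and 2 lower (all BGI peaks 40.9% and 43.2%), and 10 of the 18 matched the mESC list alone. The MEF list alone was matched by 3, among them the peak of the larger fall.

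Ezh1 also had peaks in opposite directions. A peak 7646 bases upstream of the nearest coding start (chr11:101234109-101234610) rose from 0.369, 0.0994 and 0.448 CPM to 16.3, 14.6 and 17.5 (5.62, SE 0.291, adjusted p = 1.19e-11), which brought it to the level of the Ezh1 promoter. A peak past the 3′ end, in the body of the neighbour Cntnap1 (chr11:101189432-101189933), fell from 28.3, 29.6 and 31.6 CPM to 5.30, 3.37 and 5.28 (-2.75, SE 0.155, adjusted p = 3.18e-11). An intron peak at chr11:101211882-101212383 was lower at -1.32, and the GC correction turned it to 0.95, so its direction depends on that setting. In the Ezh1 window 2 peaks matched the mESC list alone, among them the upstream peak. Another 2 matched the MEF list alone, among them the peak in Cntnap1.

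In the PRC1 ligase genes, the Rnf2 window was higher in mESCs outside its promoter, and the Ring1 window held calls in both directions. The peak over a coding exon of Rnf2 (chr1:151471366-151471867), 164 bases from a non-coding transcript start of the gene, had 0.646, 0.497 and 0.398 CPM in MEFs and 13.0, 13.8 and 18.0 in mESCs (4.77, SE 0.257, adjusted p = 1.93e-11). The 4 Rnf2 peaks other than the promoter, which also matched the mESC list alone, summed to 6.24 ± 0.956 CPM in MEFs and 40.6 ± 1.46 in mESCs (SD, n = 3). Ring1 is 3889 bases long and lies among close neighbours, and 4 of its 7 peaks were promoters of H2-Ke6, Rxrb or Slc39a7. Outside its promoter 1 of 6 peaks was higher and 2 were lower (all BGI peaks 40.9% and 43.2%). These 6 peaks summed to 110.1 ± 3.69 CPM in MEFs and 100.3 ± 3.44 in mESCs (SD, n = 3), without overlap. The neighbour promoter that fell most (chr17:34032057-34032558) fell from 15.9, 15.1 and 18.7 CPM to 7.19, 7.69 and 7.83 (-1.20, SE 0.146, adjusted p = 5.88e-07). The only Ring1 peak that rose was over a coding exon (chr17:34022315-34022816), from 0.739, 0.646 and 0.597 CPM to 7.69, 8.75 and 8.95 (3.60, SE 0.270, adjusted p = 1.17e-09). It matched the mESC list alone, and the neighbour promoter that fell most matched the MEF list alone.

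The own promoter peaks were CpG-rich, which the rule did not use. Their median ratio of observed to expected CpG was 0.837, and 15 of 21 (71.4%) reached 0.6, as did 61.9% of all promoter peaks. The 50 distal peaks had a median of 0.268, with 6 (12%) at 0.6 or above against 4.69% of all peaks more than 1 kb from a coding start. More than 50% of the bases were marked as repeats in 7 of the 50 (14%), against 7.29% of all such peaks. These 7 lay in the windows of Mtf2 (2 peaks), Rnf2, Ezh2, Suz12, Eed and Cbx7. Each of them was higher in mESCs, as were 45.9% of all peaks more than 1 kb from a coding start. Those outside the Cbx7 window matched the mESC list alone. The 7 include the distal Ezh2 and Suz12 peaks above. The part of read mapping in repeats in these values was not tested.

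**Figure D3:**
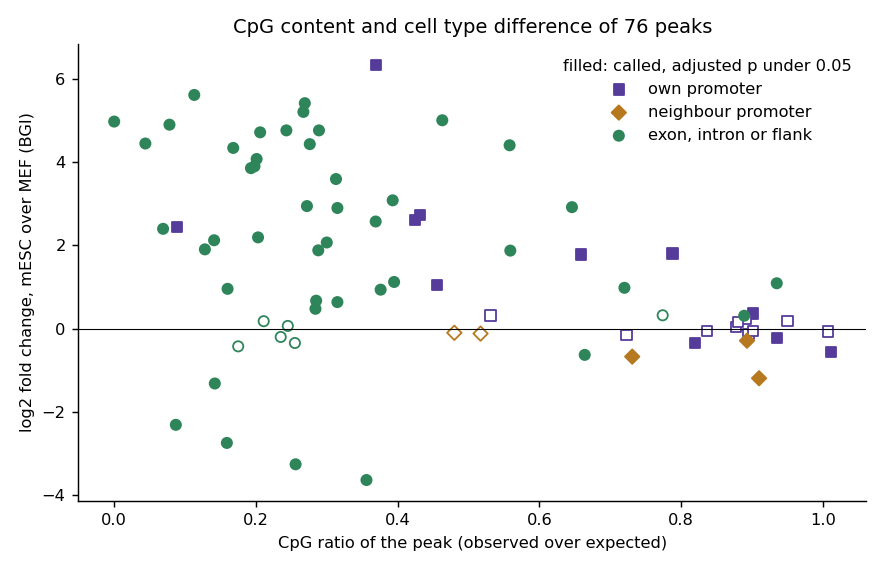
Log2 fold change (mESC over MEF, BGI) of the 76 peaks against the ratio of observed to expected CpG in the peak, with filled points called at an adjusted p under 0.05. Most CpG-rich promoter peaks lie near 0, and every log2 fold change above 3 lies at a CpG ratio under 0.6.

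Exact matches to 4 binding motifs were searched on both strands of the 38 distal peaks that rose. The octamer ATGCAAAT of POU factors such as OCT4 was in 2 of 38 (5.26%), against 5.15% of all rising peaks of this kind. The ESRRB motif TCAAGGTCA was in 0 of 38, against 2.71%. The AP-1 motif TGANTCA of FOS and JUN factors was in 5 of 38 (13.2%) against 20.0%, and in 1 of the 6 falling members against 43.4% of all falling peaks. The TEAD motif ACATTCC was in 2 of 38 (5.26%) against 10.1%, and in 0 of 6 against 17.8%.

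The Illumina reads of the same libraries are a technical repeat, not an independent one. Of 78 Illumina peaks, 48 were higher and 13 lower, where 42.1% of all Illumina peaks were higher and 42.4% lower. A match over at least 50% of the width was found for 70 of the 76 BGI peaks, and 67 of these had the same call and 0 the opposite call. The 3 that differed were promoter peaks of Jarid2, Mtf2 and Suz12 with log2 fold changes under 0.5 in size. The median absolute difference between the platforms was 0.15 on the log2 scale.

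To see what the sequencer changed, BGI was compared with Illumina within each cell type, on peaks called from either platform: 37 members of 61891 MEF peaks and 74 of 67063 mESC peaks. In MEFs 7 members were lower on BGI and 0 higher by edgeR (10 and 0 by DESeq2, and 12 and 1 where the p of edgeR was under 0.05 before adjustment), where 3.96% of all MEF peaks were lower and 0.107% higher. In mESCs 5 were lower and 0 higher (4 and 0 by DESeq2, and 15 and 3 before adjustment), where 3.19% of all were lower and 0.0418% higher. With the library as a block, since each library was read on both instruments, 15 were lower and 2 higher in MEFs (all peaks 15.3% and 13.9%), and 20 lower and 5 higher in mESCs (all peaks 15.6% and 5.78%). In the fits without the block, leaving out MEF 1 or MEF 2 left 0 lower calls in MEFs, as did leaving out mESC 1 or mESC 5 in mESCs, and 3 remained without mESC 3.

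Without the block, the members lower on BGI were GC-rich promoters. All 7 in MEFs and all 5 in mESCs had a GC content of at least 65%, out of 13 and 14 such members, where 29.3% and 23.8% of all peaks of that GC content were lower. The median log2 ratio of these members was -0.37 in MEFs and -0.34 in mESCs, and that of all such peaks -0.34 and -0.32. With the block, 10 of the 13 and 12 of the 14 were lower (all such peaks 78.7% and 79.3%), and so were 5 of 24 and 8 of 60 members under 65% GC (all such peaks 6.3% and 6.76%). The latter included intron peaks, such as one of Cbx7 at 54.4% GC (chr15:79926949-79927450), which was lower with the block in mESCs (-0.46, adjusted p = 0.00193) and with block and GC correction (-0.49, adjusted p = 0.00230). At Rnf2 the promoter peak chr1:151500089-151500648 had 22.9, 21.4 and 22.9 CPM on Illumina and 11.4, 13.5 and 12.9 on BGI in MEF 1, 2 and 4. It was lower on BGI in 3 of 3 libraries (-0.85, SE 0.112, adjusted p = 0.00630), and with block and GC correction it was at -0.32. The same site in mESCs went from 21.1 ± 1.63 to 12.9 ± 2.07 CPM (SD, n = 3), a log2 ratio of -0.76. The Cbx2 promoter (chr11:119022728-119023236) went from 42.3 ± 1.35 to 30.0 ± 3.21 CPM in MEFs (-0.52, SE 0.089, adjusted p = 0.0149), and with block and GC correction its log2 ratio was 0.03, with an SE of 0.053 and an adjusted p of 0.774 in edgeR. With block and GC correction 4 members were lower and 4 higher in MEFs (all peaks 6.53% and 6.0%), and 5 and 4 in mESCs (all peaks 4.5% and 4.11%).

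**Figure D4:**
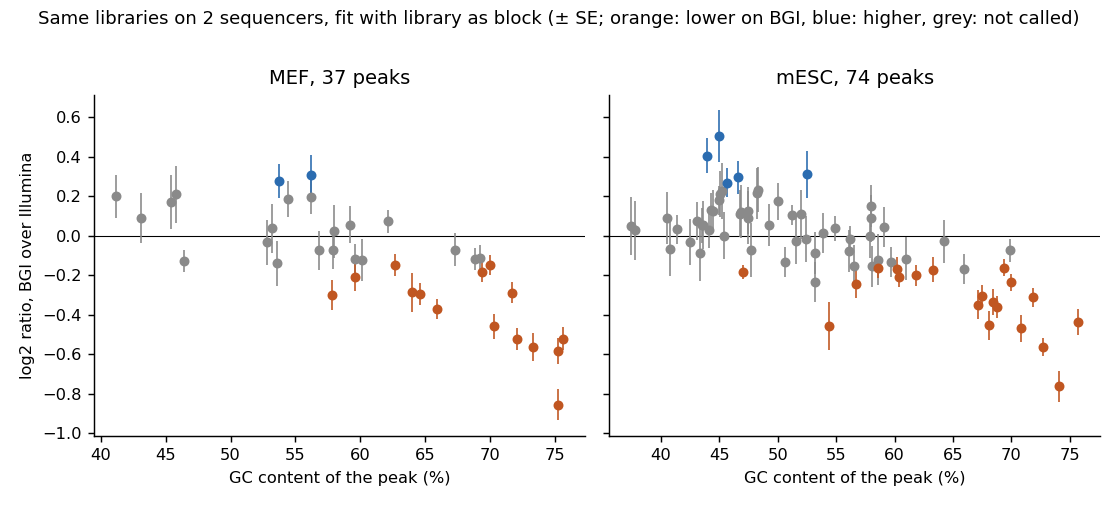
Log2 ratio of BGI over Illumina (fit with library as block, bars are SE) against the GC content of the peak in percent, for 37 members in MEFs and 74 in mESCs. Orange marks peaks lower on BGI, blue higher and grey not called, and 10 of the 15 orange points in MEFs and 12 of the 20 in mESCs lie at 65% GC or above.

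Whether the cell type difference itself depended on the platform was tested as an interaction. Without the block edgeR called 0.0% of all peaks and 0 of 76 members (2 before adjustment). Adding the block, it called 0.386% of all peaks and 1 member, a second Cbx2 promoter peak (chr11:119023292-119023793), where the cell type difference was -0.16 on BGI and -0.51 on Illumina when each platform was fitted alone.

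The other Polycomb genes were followed at the strongest promoter peak of each of 37 listed genes: further PRC1 and PRC2 subunits, the deubiquitinase genes that remove the PRC1 mark and the demethylases that remove the PRC2 mark. On BGI 22 were lower, 5 higher and 10 not called, with a median of -0.33. Over the strongest promoter peak of 14853 coding genes, 44.2% were lower and 21.8% higher with a median of -0.18. On Illumina 26 were lower and 4 higher with a median of -0.42, where 45.9% of 14922 coding genes were lower and 22.2% higher. By group on BGI, 12 of 23 PRC1 genes, 5 of 8 PRC2 genes, 4 of 4 deubiquitinase genes and 1 of 2 demethylases were lower.

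The largest falls were at E2f6, Bcor, Pcgf2 and Bap1. E2f6, a DNA-binding subunit of a variant PRC1, had 18.6, 18.0 and 21.1 CPM in MEFs and 7.76, 6.98 and 7.21 in mESCs (-1.46, SE 0.139, adjusted p = 2.35e-08). Bcor, the corepressor of another variant PRC1, was at -1.19 (SE 0.169) and Pcgf2, a subunit of CBX-containing PRC1, at -1.07 (SE 0.128). Bap1, the catalytic deubiquitinase, had 24.9, 24.5 and 24.9 CPM against 15.3, 13.3 and 13.5 (-0.89, SE 0.115). None of these 4 overlapped between cell types.

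The 4 largest rises were smaller: Kdm6b, a demethylase, from 7.34, 6.66 and 8.36 to 11.7, 10.7 and 12.9 CPM (0.59, SE 0.161), Phc2 at 0.43, Pcgf6 at 0.33 and Phc1 at 0.32. The Kdm6b call was lost under the GC correction (0.07, adjusted p = 0.698). That of Pcgf6 was lost without MEF 4 (0.27, adjusted p = 0.0529) or mESC 1 (0.30, adjusted p = 0.0559), and that of Phc1 without MEF 1 (0.31, adjusted p = 0.0601), mESC 3 (0.24, adjusted p = 0.105) or mESC 5 (0.33, adjusted p = 0.0596) and on the Illumina columns (0.22, adjusted p = 0.101). Phc1 and Phc2, both polyhomeotic subunits of PRC1, had several promoter peaks, and the strongest one was not the same on both platforms. At Phc1 a less GC-rich peak (chr6:122340953-122341454) rose from 0.481 to 25.2 CPM on BGI (5.61, SE 0.213), and its Illumina counterpart, the strongest there, rose by 5.67. At Phc2 the peak that was strongest on Illumina was lower in mESCs on both platforms (-1.11 on BGI, -0.89 on Illumina) and the one strongest on BGI was higher on both (0.43 and 0.24).

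**Figure D5:**
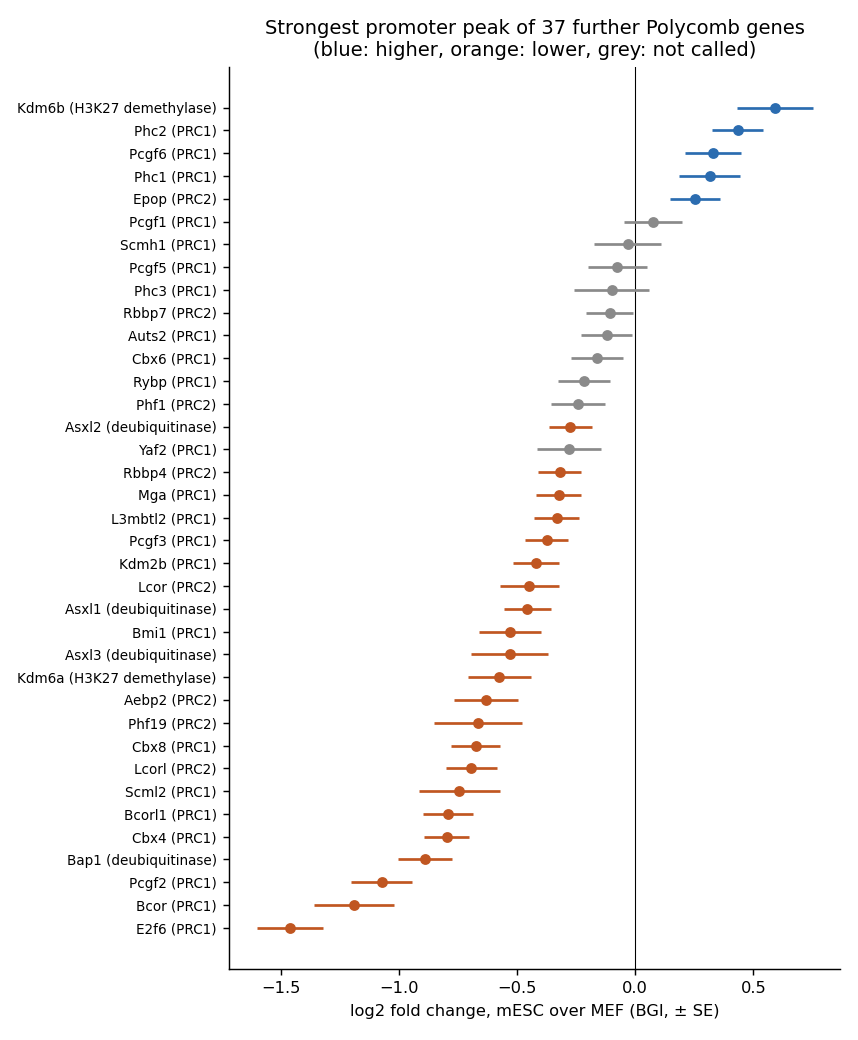
Log2 fold change (mESC over MEF, BGI, bars are SE) at the strongest promoter peak of each of the 37 further Polycomb genes, ordered by value, with blue higher, orange lower and grey not called. E2f6 lies lowest at -1.46 and Kdm6b highest at 0.59.

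The labels were checked at promoters of marker genes. Of 8 mESC markers, 7 were higher in mESCs (Esrrb at -0.07 was not called), with a summed level of 31.8 to 36.0 CPM in MEFs and 225.2 to 257.0 in mESCs. Of 8 MEF markers, 7 were lower (Pdgfra at 0.08 was not called), with 258.1 to 293.6 CPM against 78.6 to 88.3. Of 4 endothelial markers, Cdh5 and Tie1 had no promoter peak and the other 2 were not called. Of 4 leukocyte markers, Ptprc, Spi1 and Itgam had none, and Csf1r was lower in mESCs (14.4 to 17.1 CPM against 1.01 to 2.77), and its part in the member values was not tested. The libraries held 20.1 to 21.7 M reads in peaks for MEFs and 15.9 to 16.9 M for mESCs on BGI, with 15848 to 17271 and 19258 to 20477 of them in the 76 member peaks.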

How the data were processed

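Omni-ATAC-seq reads of 6 libraries on 2 instruments (12 samples) had been processed by the authors: trimming (Illumina reads to the 100 bp of BGI), Bowtie2 alignment to GRCm38, removal of duplicates and mitochondrial reads, down-sampling to 60 M reads (MEFs) or 45 M (mESCs), and MACS2 peak calling per sample. The deposited count tables hold raw counts per reproducible peak for all libraries. The deposited peak lists give a fold enrichment, a −log10 p and q and a score per summit, and served only to describe peaks; no result rests on them.

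Columns named BGI were taken as BGI and those without a suffix as Illumina. Counts were tested with edgeR 4.0.16 in R 4.3.3 (filterByExpr, TMM, quasi-likelihood F test, two-sided, Benjamini-Hochberg over all peaks). The authors' DESeq2 (here 1.42.0), RLE size factors, fixed library sizes, no filter or a mean count of at least 50, a GC offset, the other platform's columns, other windows, the library block and leaving out each library were alternatives. CPM used TMM-free totals of reads in peaks. Named for each gene were its strongest promoter peak and the called peaks with the largest rise and fall elsewhere; from the further list, the 4 largest called changes in each direction. The strongest Jarid2 intron peak, the internal Cbx7 start site and Phc1 and Phc2 were added after their values were seen. The members, gene lists and markers were chosen with earlier results of these data known.

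Same-numbered samples of the 2 platforms are the same library by the study's methods, and their deviations from group means correlated at 0.515 to 0.837, against -0.675 to 0.289 for different numbers. Replicates differed by more than sampling noise (chi-square per peak 2.46 to 6.59 over 12 pairs). The median peak held 122 to 156 reads per library. Scripts were tested on simulated data. Sequences, CpG ratios and motifs came from RefSeq GRCm38. The 3 libraries of a cell type are biological replicates by the study's methods.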

Additional observations from a re-analysis of the deposited data

Results flagged for a closer look

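A second promoter peak of Cbx2 (chr11:119023292-119023793) differed between the platforms in its cell type difference, by a test of that difference itself. With the library as a block and all 12 samples normalised together, the log2 fold change of mESCs over MEFs was 0.48 higher on BGI than on Illumina (SE 0.112, edgeR adjusted p = 0.0319). Without the block the difference was the same size (SE 0.155, unadjusted p = 0.00635, adjusted p = 1.0). The peak had a GC content of 70.5%, and once a GC offset joined the block the difference was 0.33 and no member was called.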

How the results depend on the processing

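Beside the window, 13 alternatives for each cell type comparison kept 53 to 58 of the 58 member calls on BGI and 54 to 61 of the 61 on Illumina, and turned at most 1 of them, the Ezh1 intron peak described above. A mean count of at least 50 left 56 of the 58 and 58 of the 61 to test, and kept these. Fixed library sizes shifted the log2 fold change of the median peak by 0.14 (BGI) and 0.13 (Illumina). The GC offset gave a median shift per peak of -0.09 and -0.16, while the median over all peaks went from -0.08 to -0.03 and from -0.03 to -0.02. On BGI the GC offset ended the calls of the Suz12 and Ring1 promoters, of the Rxrb and Slc39a7 promoter at 34031383 (-0.16) and of the Ezh1 exon peak (0.00), and on Illumina that of the Eed promoter peak (-0.05, adjusted p = 0.589) among others. The window set the counts. With gene bodies alone 37 of 57 peaks were higher and 7 lower on BGI and 39 and 7 of 57 on Illumina. With 25 kb on either side 70 of 121 were higher and 22 lower on BGI (all peaks 40.9% and 43.2%), and 74 and 27 of 123 on Illumina (42.1% and 42.4%). Leaving out 1 library at a time left 3 to 4 of the further genes higher on BGI.

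Between platforms, pairing the libraries with the block raised the lower calls in MEFs from 7 to 15 and the higher from 0 to 2, and in mESCs from 5 to 20 and from 0 to 5. Adding the GC offset to the block, 4 were lower and 4 higher in MEFs, and 4 higher in mESCs. With the GC offset alone 0 were lower in either cell type, and RLE size factors left 3 in mESCs. Leaving out 1 library gave 0 to 9 lower calls in MEFs and 0 to 3 in mESCs, and with the block 12, 13 and 14 lower and 0 to 1 higher in MEFs and 15, 16 and 17 lower and 2 to 4 higher in mESCs. The Cbx2 promoter ratio turned to 0.031 in MEFs under either GC offset, and to 0.102 and 0.103 in mESCs. The interaction went from 0 to 1 member with the block. No paired analysis was possible for the cell types because their libraries share only the number 1. Over all alternatives to the counts, 141 stayed within 1.5 times the main count and 34 did not. Counts of 3 libraries a group limit the small promoter differences, and peaks near 0.3 CPM in MEFs rest on few reads.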
